A study of Homo sapiens with 6 samples.

Results

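The miR-148 and miR-152 family consists of the mature human miRNAs miR-148a, miR-148b and miR-152, taken by name with either arm. The table of counts held 4 such names among 1007, namely hsa-miR-148a-3p, hsa-miR-148a-5p, hsa-miR-148b-3p and hsa-miR-152-3p (without hsa- from here on), and 2 of them, miR-148a-3p and miR-148b-3p, had enough counts to be tested. No member name stood for several miRNAs, unlike 45 other names of the table. The 5p arms of miR-148b and miR-152 had no row in the counts. The libraries were made from RNA of 18 to 30 nt in extracellular vesicles (exosomes) that MHCC97H cells, a human hepatoma line of high metastatic potential, released into their medium. The 3 xanthatin samples came from cells given 4 µmol/L xanthatin, a sesquiterpene lactone of Xanthium plants, for 24 h, and the 3 control samples from cells without it. All cells were of 1 line, the labels give DMSO at 0.5% for all experiments, and the cells grew in medium with 5% whole fetal bovine serum plus 5% of an exosome-depleted one. The labels do not say that the 3 samples of a group came from separate cultures, so the p-values measure only the spread between these samples.

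A miRNA is loaded into an Argonaute protein and pairs with target transcripts mainly through its seed, bases 2 to 8 from the 5′ end, and miRNAs with the same seed can repress overlapping sets of targets. The miR-148 and miR-152 family is known for repressing the DNA methyltransferase DNMT1. In liver, miR-148a is among the abundant miRNAs of hepatocytes, where it is known to repress the LDL receptor. The mature 3p sequences are shown because they carry the relation between the members (RefSeq, GRCh38.p14; the seed is in capitals).

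miR-148a-3p: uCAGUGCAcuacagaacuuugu

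miR-148b-3p: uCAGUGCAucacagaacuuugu

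miR-152-3p: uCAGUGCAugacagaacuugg

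All 3 sequences carried the seed CAGUGCA, and they were the only ones with it among 2370 mature names of the RefSeq table. Counted from the 5′ end, miR-148a-3p and miR-148b-3p were identical at 20 of 22 positions and differed by C9U and U10C, just after the seed. miR-152-3p, of 21 nt, differed from miR-148b-3p by C10G and U20G and from miR-148a-3p by C9U, U10G and U20G. The members can therefore be told apart in an 18 to 30 nt read only by these few bases. How the authors placed reads with mismatches is not stated in the sources used here.

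The precursors lie at separate loci. The hairpins are shown, with the 3p stretch in capitals, because almost every count of the family came from that arm.

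MIR148A: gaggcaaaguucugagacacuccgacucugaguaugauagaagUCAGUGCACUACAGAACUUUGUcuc

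MIR148B: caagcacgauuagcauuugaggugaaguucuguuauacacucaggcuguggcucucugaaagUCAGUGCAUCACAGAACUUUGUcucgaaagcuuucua

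MIR152: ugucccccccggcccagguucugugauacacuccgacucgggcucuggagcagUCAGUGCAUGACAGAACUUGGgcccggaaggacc

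In GRCh38, MIR148A lies on the minus strand at chr7:25949919-25949986 and overlaps no other gene of the GENCODE 29 annotation. MIR148B lies on the plus strand at chr12:54337216-54337314, within an intron of COPZ1, and MIR152 on the minus strand at chr17:48037161-48037247, within an intron of COPZ2. COPZ1 and COPZ2 encode the zeta subunits of the coatomer of COPI transport vesicles. The MIR148B precursor also lies in the noncoding transcript AC078778.2 of the same strand, outside its exons.

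The xanthatin libraries held 204520 to 267956 miRNA counts and the control libraries 63965 to 80088, so depth differed between the groups. Across all names, 77 of 254 tested miRNAs had an adjusted p under 0.05 in edgeR's quasi-likelihood test (30.3% of those tested), with 34 higher (13.4%) and 43 lower (16.9%) in xanthatin libraries. With library totals in place of TMM scaling, 26.8% of the called names were higher, against 44.2% with TMM. The median log2 fold change of all tested names was -0.16, and totals alone moved each name by a median of -0.34.

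In the vesicles of xanthatin-treated cells, miR-148a-3p made up a smaller part of the miRNA counts and miR-148b-3p a larger part than in control vesicles. Relative to the scaled miRNA counts, miR-148a-3p was 2.44-fold lower and miR-148b-3p 2.75-fold higher. Both members passed the test over all names, which 30.3% of tested names did, and the CPM of the groups did not overlap for either, as for 54.7% of tested names. The call of miR-148b-3p was lost when any 1 library was left out, whereas that of miR-148a-3p was not. In these bulk samples, fewer vesicles that carry a miRNA and less of it per vesicle cannot be told apart.

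hsa-miR-148a-3p, the most counted member and a known repressor of DNMT1 and the LDL receptor, had 22612, 19103 and 25693 CPM in xanthatin libraries, against 44409, 59182 and 61063 CPM in control libraries. CPM here is the count scaled to the TMM-adjusted miRNA total of its library. Every xanthatin library lay below every control library, as was the case for 29.5% of tested names. The mean was 22469 ± 3297 CPM in xanthatin and 54885 ± 9120 CPM in control libraries (SD, n = 3 each), a log2 fold change of -1.29 (SE 0.17, edgeR adjusted p = 0.00272). Of the 43 called names that were lower in xanthatin libraries, 36 had a more negative log2 fold change than miR-148a-3p.

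**Figure D1:**
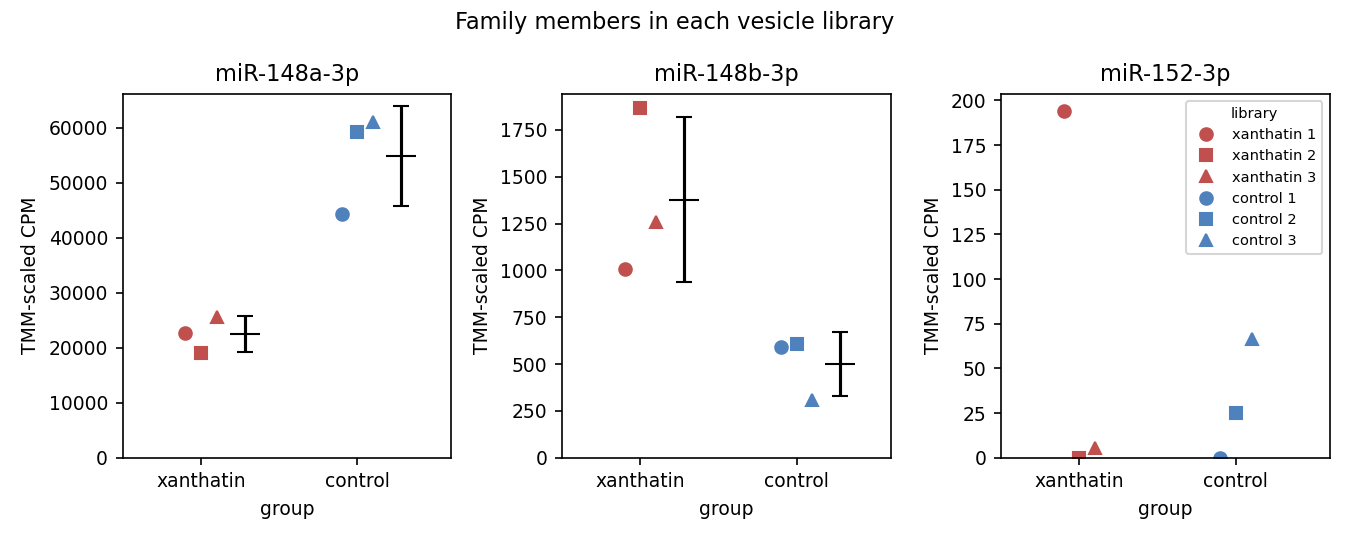
TMM-scaled CPM (vertical axes) of miR-148a-3p, miR-148b-3p and miR-152-3p in each library, by group (horizontal axes), with the mean and SD of 3 libraries as black bars for the members tested. miR-148a-3p lies between 19103 and 25693 CPM in xanthatin libraries, below all control libraries, miR-148b-3p lies between 1008 and 1867 CPM in xanthatin libraries, above all control libraries, and miR-152-3p stands out in xanthatin replicate 1 alone.

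The fall of miR-148a-3p was seen relative to library depth, which differed between the groups, and not in raw counts. Xanthatin libraries held 4776, 4595 and 4626 counts of it, against 3837, 4684 and 4589 counts in control libraries, so the raw counts of the groups overlapped. The miRNA total around those counts was larger in every xanthatin library. As a share of all miRNA counts, miR-148a-3p took 2.003%, 1.71% and 2.26% in xanthatin libraries, against 4.79%, 6.67% and 7.17% in control libraries. The exact 95% binomial intervals of these shares ran from 1.67% to 2.33% over the xanthatin libraries and from 4.64% to 7.38% over the control libraries. The labels do not say whether the reads had molecular identifiers. These and all later intervals take each count as independent and stand for counting error alone, so they may be too narrow. Control replicate 1, with an interval of 4.64% to 4.94%, lay below the intervals of the other control libraries, so the replicates differed by more than counting error. By number of counts, miR-148a-3p held rank 11, 13 and 10 among the 1007 names in xanthatin replicates 1, 2 and 3, and rank 6, 3 and 3 in control replicates 1, 2 and 3.

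**Figure D2:**
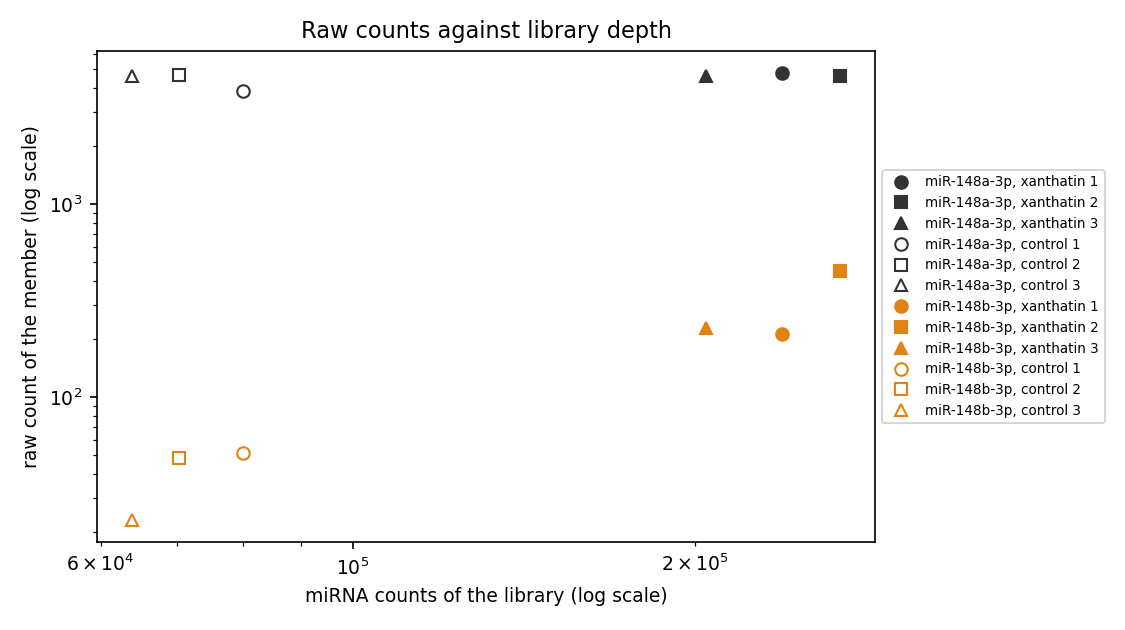
Raw count of miR-148a-3p (dark) and miR-148b-3p (orange) in each library (vertical axis, log scale) against the miRNA counts of that library (horizontal axis, log scale), with filled symbols for xanthatin and open symbols for control libraries. The counts of miR-148a-3p lie between 3837 and 4776 at every depth, while those of miR-148b-3p lie between 213 and 449 in xanthatin libraries and between 23 and 51 in control libraries.

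The deposited TPM, for which the authors used a larger library total than that of the miRNAs, gave the same order. miR-148a-3p was at 165, 144 and 172 TPM in xanthatin libraries, against 316, 472 and 488 TPM in control libraries. On that scale too the groups did not overlap. limma on log2(TPM + 1) gave a log2 fold change of -1.38 (adjusted p = 0.00142).

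hsa-miR-148b-3p, which shares the seed and is likewise known to repress DNMT1, was far less counted. It had 213, 449 and 227 counts in xanthatin libraries, against 51, 48 and 23 counts in control libraries. In CPM, xanthatin libraries held 1008, 1867 and 1261, against 590, 606 and 306 in control libraries. The groups did not overlap, as for 25.2% of tested names in this direction, and xanthatin replicate 2 was the highest library. The mean was 1379 ± 441 CPM in xanthatin and 501 ± 169 CPM in control libraries (SD, n = 3 each), a log2 fold change of 1.46 (SE 0.41, edgeR adjusted p = 0.0399).

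The rise of miR-148b-3p lay close to the threshold. Without any 1 library its adjusted p was 0.0525 to 0.119, with log2 fold changes of 1.20 (without xanthatin replicate 2) to 1.74 (without control replicate 2). With library totals alone the log2 fold change was 1.13 (adjusted p = 0.0791). As a share of miRNA counts it took 0.0893%, 0.168% and 0.111% in xanthatin libraries, against 0.0637%, 0.0683% and 0.0360% in control libraries. The exact interval of xanthatin replicate 1, 0.0777% to 0.102%, overlapped those of control replicate 1, 0.0474% to 0.0837%, and replicate 2, 0.0504% to 0.0906%. The interval of xanthatin replicate 2, 0.152% to 0.184%, lay above that of every other library. Of the 34 called names that were higher in xanthatin libraries, 21 had a larger log2 fold change than miR-148b-3p.

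**Figure D3:**
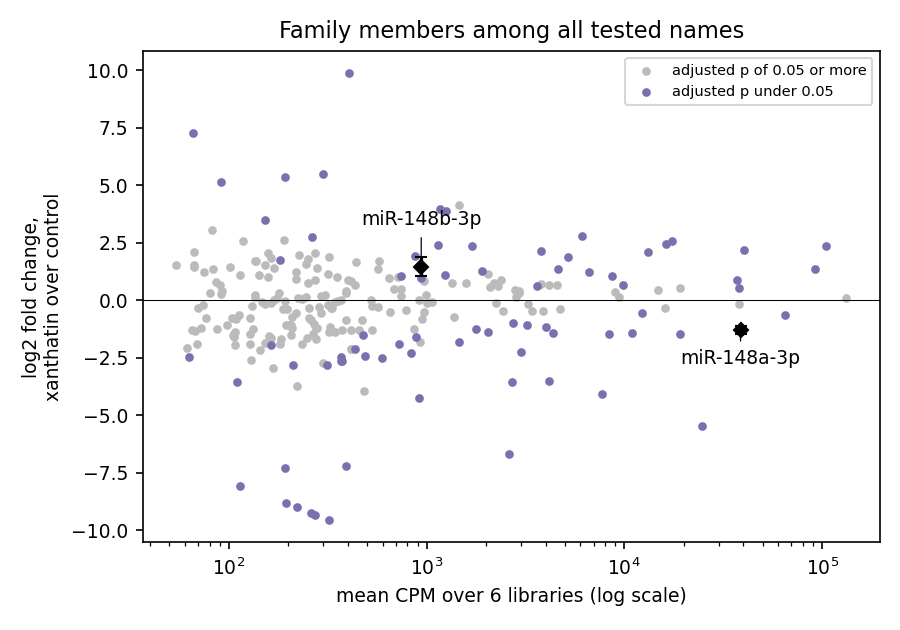
Log2 fold change, xanthatin over control (vertical axis), against mean CPM over the 6 libraries (horizontal axis, log scale) for the 254 tested names, with names at an adjusted p under 0.05 in purple and the tested members as black diamonds with their SE. miR-148a-3p lies at -1.29 among the most abundant names and miR-148b-3p at 1.46, where names are less abundant.

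The ratio of the members within a library does not depend on how libraries are scaled. In xanthatin libraries there were 22.4, 10.2 and 20.4 counts of miR-148a-3p for each count of miR-148b-3p, against 75.2, 97.6 and 199.5 in control libraries. Every xanthatin library lay below every control library, and no exact 95% interval of a xanthatin library (9.29 to 25.8 over the libraries) reached those of the control libraries (57.1 to 315). The mean log2 ratio was 4.06 ± 0.62 in xanthatin and 6.83 ± 0.73 in control libraries (SD, n = 3 each), a difference of -2.76. The exact two-sided permutation test gave p = 0.1, the smallest p that 3 samples against 3 allow. Both members were chosen with these directions known, so the difference is a description.

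**Figure D4:**
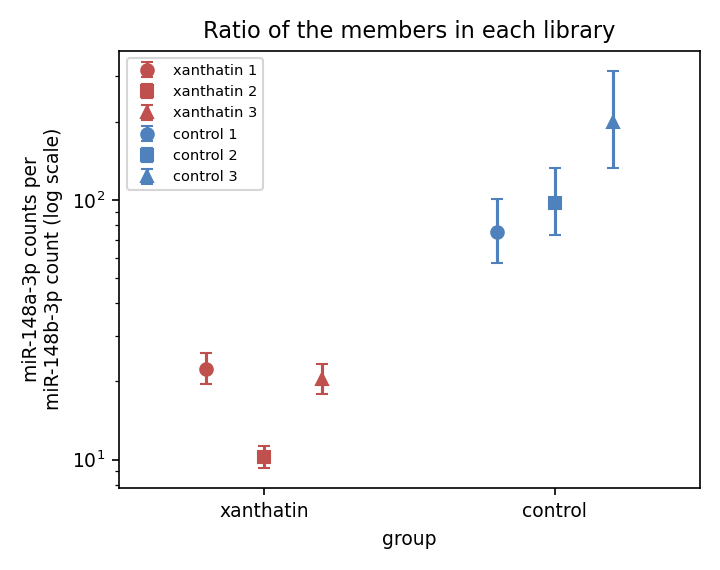
Counts of miR-148a-3p per count of miR-148b-3p (vertical axis, log scale) in each library, by group (horizontal axis), with exact 95% binomial intervals for counting error. The xanthatin libraries lie between 10.2 and 22.4 and the control libraries at 75.2 and above.

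The family as a whole followed its most counted member. The 4 names together took 2.11%, 1.88% and 2.37% of the miRNA counts in xanthatin libraries, against 4.85%, 6.74% and 7.22% in control libraries. miR-148a-3p made up 93.8% ± 2.3 of the family counts in xanthatin and 99.0% ± 0.33 in control libraries (SD, n = 3 each). miR-148b-3p made up 5.94% ± 2.58 in xanthatin and 0.941% ± 0.412 in control libraries. No test was run on these sums over chosen members.

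miR-152-3p, also known to repress DNMT1, had too few counts for the test. Xanthatin libraries held 41, 0 and 1 counts of it, against 0, 2 and 5 counts in control libraries. Nearly all of its counts came from xanthatin replicate 1. Per miRNA count its rate with xanthatin was 1.81 times that of control (exact 95% Poisson interval 0.805 to 4.77), but 0.0648 times (0.00144 to 0.504) without xanthatin replicate 1, on 1 count. It was 2.90 without xanthatin replicate 2, 1.13 without control replicate 1 and 4.44 without control replicate 3. A library with 0 counts allows up to 3 counts, which is 12.5 CPM in xanthatin replicate 2 and 34.7 CPM in control replicate 1. With no count filter, the fitted log2 fold change was 1.34 (edgeR adjusted p = 0.700). Counts confined to 1 library of a group were not particular to miR-152-3p. Of all 1007 names, 15, with miR-152-3p among them, had at least 20 counts in xanthatin replicate 1 and at most 1 in each of the other xanthatin libraries. The same held for 16 names in replicate 2 and 14 in replicate 3. These limits of 20 and 1 were chosen after the values were seen.

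miR-148a-5p, the partner strand that is mostly degraded when the 3p strand is loaded, was close to the limit of detection. It had 1, 0 and 1 counts in xanthatin libraries, against 0, 2 and 3 counts in control libraries. The 3p arm of the same precursor had 13997 counts over the xanthatin and 13110 over the control libraries. The rate ratio of the 5p arm was 0.121, with an exact Poisson 95% interval of 0.0115 to 0.736 that rests on 2 counts with xanthatin. It was 0.193 (0.0184 to 1.18) without xanthatin replicate 2, 0.0755 (0.00719 to 0.461) without control replicate 1 and 0.211 (0.0153 to 2.92) without control replicate 3. A difference of the 5p arm beyond the spread between libraries was not detectable at this depth.

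Over the 6 libraries, the names with the pattern nearest to that of miR-148a-3p were miR-371a-3p, miR-483-5p and miR-200c-3p. Likeness is the root mean square difference of log2(CPM + 1) after each name is centred on its own mean, over 176 other tested names with a mean of at least 200 CPM, and it was 0.087, 0.10 and 0.11. miR-371a-3p, of an embryonic cluster on chromosome 19, was at 931 to 1394 CPM in xanthatin and 2326 to 3367 CPM in control libraries. miR-483-5p, from an intron of IGF2, was at 1838 to 2888 CPM in xanthatin and 5417 to 7106 CPM in control libraries. miR-200c-3p, known for maintaining epithelial identity, was at 873 to 1272 CPM in xanthatin and 2211 to 2805 CPM in control libraries. In all 3, as in miR-148a-3p, replicate 3 was the highest and replicate 2 the lowest xanthatin library. These names were picked by likeness over the same 6 libraries, so a shared order is what the choice favours.

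The names nearest to miR-148b-3p were the predicted sequence novel386_mature at 0.10, miR-192-5p at 0.27 and miR-146a-5p at 0.35. novel386_mature was at 341, 536 and 339 CPM in xanthatin libraries, against 174, 190 and 93.1 CPM in control libraries. It too was highest in xanthatin replicate 2 and lowest in control replicate 3, which its choice by likeness favours. Its adjusted p was 0.0737 with edgeR. miR-192-5p, abundant in liver and gut epithelium, and miR-146a-5p, which is induced by NF-κB, had log2 fold changes of 1.22 (edgeR adjusted p = 0.0399) and 1.28 (adjusted p = 0.0101).

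The miR-130, miR-301 and miR-454 family carries 6 bases of the same seed shifted by 1 position, as the mature sequence of miR-130b-3p shows (RefSeq, GRCh38.p14; the shared bases are in capitals).

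miR-130b-3p: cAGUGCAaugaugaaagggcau

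A seed other than CAGUGCA that held AGUGCA, shifted or differing only at base 2, was found in 10 mature RefSeq names. RefSeq held 441 of the 497 known names of the counts, so names outside it could not be searched. miR-130a-3p of this family was not among the 10, which does not mean that it lacks these bases. Of the 10, 1 had a row in the counts, miR-130b-3p. It had 0, 1 and 0 counts in xanthatin libraries and 1, 0 and 0 in control libraries. The family was also counted by a list of 5 miRNAs, miR-130a, miR-130b, miR-301a, miR-301b and miR-454. miR-130a-3p of this list had 0 counts in all xanthatin libraries and 1, 1 and 0 in control libraries. Of the 4 rows that matched it, 1 was tested, the other arm miR-130b-5p, and it was not called, at 369 ± 106 CPM in xanthatin and 371 ± 81 CPM in control libraries (log2 fold change -0.01, edgeR adjusted p = 0.990). miR-454-5p had 12, 0 and 0 counts in xanthatin and 0, 0 and 14 in control libraries.

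Of 9 rows for miRNAs reported to target DNA methyltransferases other than the family, 3 were tested and 1 was called, beside 30.3% of all tested names. It was miR-143-3p, which was lower (log2 fold change -4.26, SE 0.54, edgeR adjusted p = 0.00272) and is also a marker of stromal cells. miR-29a-3p, known to repress DNMT3A and DNMT3B, was at 1047 ± 343 CPM in xanthatin and 1715 ± 397 CPM in control libraries and did not pass (log2 fold change -0.71, edgeR adjusted p = 0.148). miR-126-3p, an endothelial miRNA, was at -1.86 and did not pass (edgeR adjusted p = 0.0750), except with library totals only, limma-voom and limma on TPM (adjusted p = 0.0273 to 0.0463). The median log2 fold change of the 3 was -1.86, beside -0.16 over all tested names. The other 6 rows had too few counts for the test, and 4 of them were at 0 in all control libraries. Of these, miR-185-5p, known to repress DNMT1, had 19, 0 and 13 counts in xanthatin libraries, miR-342-3p had 0, 9 and 9, miR-342-5p had 0, 0 and 34, and miR-29c-3p had 0, 0 and 17. miR-29b-3p had 17, 0 and 11 counts in xanthatin and 0, 0 and 2 in control libraries, and miR-185-3p had 5, 0 and 1 counts in xanthatin and 2, 0 and 0 in control libraries.

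The summed CPM of the blood list and of the stromal and endothelial list was lower in every xanthatin library than in any control library. The same held for the hepatocyte list and the list of miRNAs reported to target DNA methyltransferases, but 1 row weighed heavily in each sum. In the hepatocyte list it was miR-122-5p, at a mean of 1086 CPM in xanthatin and 48383 CPM in control libraries. miR-192-5p (9282 and 3978 CPM) and miR-194-5p (667 and 209 CPM) went the other way. In the methyltransferase list it was miR-143-3p, at 90.3 and 1741 CPM. Sums without these rows were not taken. The methyltransferase list summed to 919 to 2133 CPM in xanthatin and 3247 to 4205 CPM in control libraries. Sums of the miR-130, miR-301 and miR-454 list overlapped, at 279 to 483 CPM in xanthatin and 303 to 639 CPM in control libraries. Of 6 rows of blood cell markers, 1 was tested and it was lower, as 16.9% of all tested names were. It was miR-486-5p (log2 fold change -3.52, SE 0.33, edgeR adjusted p = 8.54e-04), which held most of the list's counts, and the list summed to 619 to 795 CPM in xanthatin and 5496 to 10995 CPM in control libraries. The lymphocyte miRNA miR-150-5p had 0 counts in all xanthatin libraries and 0, 0 and 11 in control libraries. The red cell miRNA miR-451a had 1, 9 and 0 counts in xanthatin and 1, 3 and 2 in control libraries, miR-142-5p had 1 count, in xanthatin replicate 3, and 2 rows of the list were at 0 in all xanthatin libraries and 1 in all control libraries. Of 8 rows of stromal and endothelial markers, 3 were tested and 2 were lower, beside 16.9% of all tested names, namely miR-143-3p and miR-10b-5p (log2 fold change -1.81, SE 0.25), while miR-126-3p did not pass. That list summed to 686 to 1005 CPM in xanthatin and 3664 to 5243 CPM in control libraries, with 3 rows at 0 in all xanthatin libraries.

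The hepatocyte markers were read in both groups, with 1 of 4 tested rows lower and 1, miR-192-5p, higher, beside 16.9% and 13.4% of all tested names. miR-192-5p no longer passed once control replicate 1 or a single xanthatin library was removed (edgeR adjusted p = 0.0823 to 0.0943), nor with upper-quartile factors (0.0556), totals alone (0.0791) or the replicate block (0.0715). The arms of miR-194 lay in opposite directions and neither passed, with miR-194-3p at -1.80 (edgeR adjusted p = 0.0585) and miR-194-5p at 1.67 (adjusted p = 0.338). miR-194-3p was under the threshold once xanthatin replicate 3 was removed, and also with RLE or upper-quartile factors, with totals alone or those from the TPM, with DESeq2, with limma-voom and with limma on TPM (adjusted p = 0.0126 to 0.0497). miR-122-5p was at 1086 ± 116 CPM in xanthatin and 48383 ± 9796 CPM in control libraries (log2 fold change -5.48, SE 0.21), and miR-885-5p had 15 counts in control replicate 1 and 0 elsewhere. The list summed to 10742 to 12152 CPM in xanthatin and 41409 to 63642 CPM in control libraries. All cells were of 1 line. The part of the serum in the medium, with any blood or stromal miRNAs, in the results on miR-148a-3p and miR-148b-3p was not tested. With libraries thinned to equal miRNA totals, miR-148a-3p was at -1.28 (edgeR adjusted p = 0.00195) and miR-148b-3p at 1.33 (adjusted p = 0.0587).

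**Figure D5:**
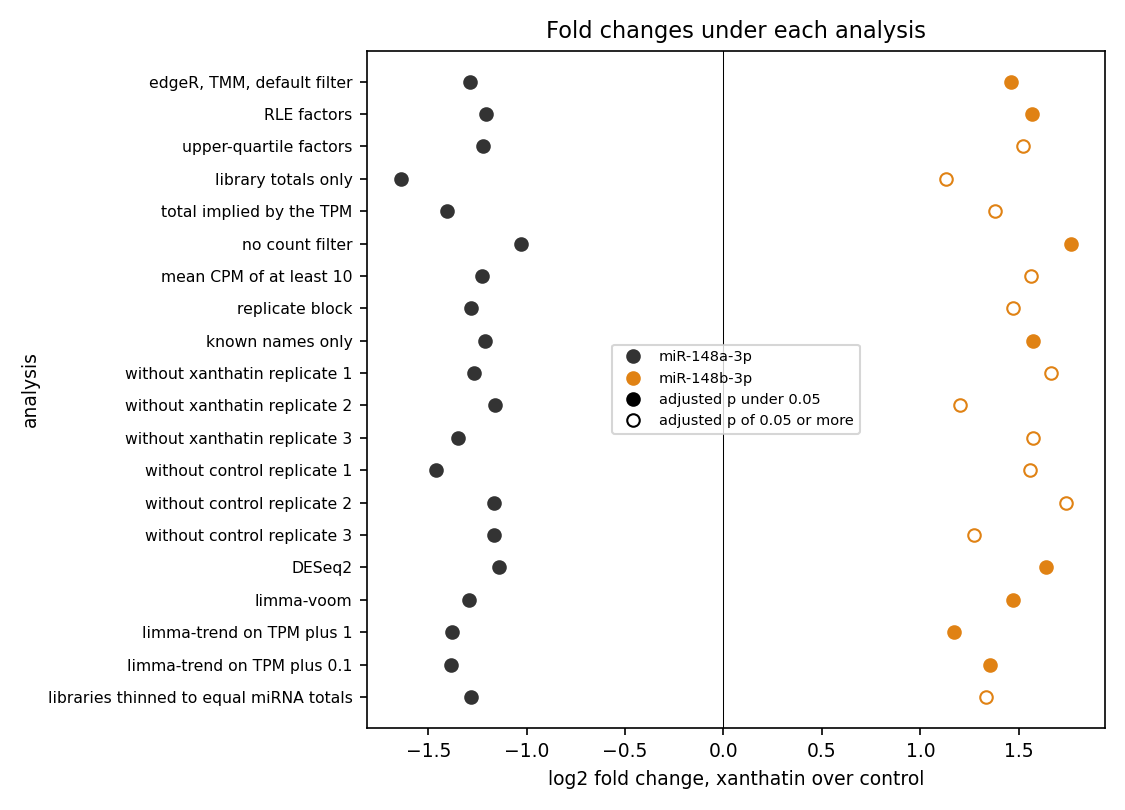
Log2 fold change, xanthatin over control (horizontal axis), of miR-148a-3p (dark) and miR-148b-3p (orange) under each analysis (vertical axis), with filled symbols at an adjusted p under 0.05. miR-148a-3p lies between -1.64 and -1.03 and is filled in every analysis shown, and miR-148b-3p lies between 1.13 and 1.77 and is open in 12 of the 19 alternatives.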

How the data were processed

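Per the file headers, the authors deposited a raw count and a TPM value for each miRNA name and library. In each library the deposited TPM was the count over a fixed constant, without correction for length, which implied a total of 26867789 to 31859012 in xanthatin and 9408297 to 12130988 in control libraries. Per the submitters' processing notes the build was hg38, while the aligner, miRNA database and counter are not given in the sources used. Counts of all 1007 names were tested in R 4.3.3 by edgeR 4.0.16 (quasi-likelihood F test on group, TMM scaling, default count filter with minimum count 10), adjusted by the Benjamini-Hochberg method over the 254 tested names. The SE follows from the log2 fold change and the square root of its F statistic. The fits were tested on simulated data.

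The members and lists were chosen with earlier results of these data known. Text names follow a rule: every member, the 3 nearest names of each tested member, and of each list the 2 most abundant and the called members. miR-130a-3p, miR-130b-3p, miR-126-3p, miR-451a, miR-142-5p, miR-885-5p, both miR-194 arms, miR-29b-3p, miR-29c-3p and the miR-185 and miR-342 arms fall outside it and were chosen after their values were seen. Alternatives were other scalings and filters, DESeq2 1.42.0, limma 3.58.1 (voom, and trend on TPM plus 1 or 0.1), a replicate block, known names only and leaving out each library. Thinned libraries were added after the data were seen. Hairpin positions come from RefSeq (GRCh38.p14) and were the same in GENCODE 29. RefSeq held 441 of the 497 known names.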

Additional observations from a re-analysis of the deposited data

How the results depend on the processing

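miR-148a-3p kept its direction and its call under all 19 alternatives, with log2 fold changes of -1.64 (library totals only) to -1.03 (no count filter). Without 1 library it was at -1.46 to -1.16.

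miR-148b-3p kept its direction under all 19, but its call was lost in 12, at adjusted p = 0.0509 to 0.119. These were upper-quartile factors (1.52), library totals only (1.13), totals implied by the TPM (1.38), a mean CPM of at least 10 (1.56), thinned libraries (1.33), the replicate block (1.47) and each left-out library (1.20 to 1.74). The cause was not tested.

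The log2 ratio of miR-148a-3p to miR-148b-3p differed by -3.06 to -2.36 without 1 library. The family share, xanthatin minus control, was -4.15 percentage points, and -0.0259 points against the total implied by the TPM, which is larger by construction. With known names only 49 names were called, and 56 to 69 without 1 library.

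No pairing of samples by replicate number was seen, but a check on 3 samples per group cannot exclude one. Deviations from the group means correlated at 0.09, -0.08 and -0.14 between samples of numbers 1, 2 and 3, and no xanthatin sample correlated best with the control of its number. With the replicate block, 54 names were called. With all 6 libraries, miR-152-3p and miR-148a-5p could not be tested at the default filter. For miR-152-3p the libraries disagreed, with 41 counts in xanthatin replicate 1 and 0 in xanthatin replicate 2, which had more miRNA counts. It was tested without control replicate 1 (log2 fold change 0.515, edgeR adjusted p = 0.890) and without control replicate 2 (1.02, adjusted p = 0.811).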
